A study of Homo sapiens with 6 samples.

Results

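The G1/S genes described here are 10 genes of the machinery that takes a cell from G1 into DNA synthesis, chosen by symbol from the 28491 genes of the count table: CCND1, CCND3, CCNE1, CCNE2, CDK2, CDK4, CDK6, CDKN1B, RB1 and E2F1. All 10 had a row in the count and FPKM tables, and all 10 passed the filter on low counts. Poly(A) RNA was sequenced from HCT116 cells, a human colorectal carcinoma line, 48 h after Lipofectamine transfection. The cells received an RBM47 expression plasmid (RBM47-OE, 3 libraries) or the control plasmid (NC, 3 libraries). RBM47 is an RNA-binding protein. The sample labels name a Flag-tagged pcDNA3.1 plasmid and the study's methods a pIRES-hrGFP-1a plasmid, and in both the insert is the NM_019027 transcript. The model is a single cell line after transient transfection, so cells with and without the plasmid were sequenced together, and no source says that the libraries came from separate cultures. The p-values measure only the spread between these libraries, which may be technical.

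In G1, D-type cyclins activate CDK4 and CDK6, which phosphorylate the retinoblastoma protein RB1. RB1 holds E2F transcription factors inactive until cyclin E with CDK2 completes its phosphorylation, and E2F1 then drives the genes of DNA replication, CCNE1 and its own gene among them. CDKN1B (p27) binds cyclin and CDK complexes and inhibits cyclin E with CDK2. This pathway is altered in many tumors, and the study asked which genes change in these cells when RBM47 is raised.

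E2F factors bind a short motif, which was looked for in the promoters. In the windows from 250 bases before to 50 bases after the gene starts (RefSeq, GRCh38.p14), both strands were searched for the E2F motif spelled TTTCCCGC, TTTCGCGC, TTTGCCGC or TTTGGCGC. Windows were at hand for 7 of the G1/S genes, and of these E2F1 alone held the motif, with 2 matches. Among the E2F target genes of the list described further on, 19 of 32 genes held it (59.4%), against 6.56% of 11105 tested genes and 3.31% of all 35116 windows. A match describes the letters and not a bound site. The 30 bases around the matches are shown for E2F1 and, for comparison, for UNG and MCM7, which the naming rule picked from that list and which hold a match, as other listed targets do. They read as follows on the gene's strand, with the motif in capitals.
E2F1 (chr20:33686400-33686429, minus strand): gtggctctttcGCGGCAAAaaggatttggc
E2F1 (chr20:33686387-33686416, minus strand): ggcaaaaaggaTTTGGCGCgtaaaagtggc
UNG (chr12:109098098-109098127, plus strand): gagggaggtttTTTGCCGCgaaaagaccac
MCM7 (chr7:100101566-100101595, minus strand): cagctcggaccGCGGGAAAcccggcgcctg
MCM7 (chr7:100101388-100101417, minus strand): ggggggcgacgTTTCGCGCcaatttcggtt
The windows of E2F1 overlap each other. The motif starting with GCG is the same motif on the opposite strand.

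Between 26792409 and 35477983 reads were counted on genes per library. RBM47 had 19.1 to 23.1 CPM (read counts scaled to library depth) in NC and 1201 to 1267 in RBM47-OE, so the targeted gene was higher in each library labelled RBM47-OE. All 5 epithelial markers checked (EPCAM, KRT8, KRT18, KRT19 and CDH1) had at least 12.9 FPKM in every library. Of 7 markers of other cell types, the 5 with values reached at most 2.90 FPKM, and CD3E, PECAM1 and ALB stayed below the filter on low counts, CD3E being listed at 0 in 5 libraries. The sum of the latter ranged from 3.38 to 4.35 FPKM in NC and from 2.82 to 3.57 in RBM47-OE. The libraries also differed in how levels varied with the GC content of exons. Across 16229 genes, Spearman's rho of each library's log2 difference from NC with exonic GC was -0.414, -0.586 and -0.674 for RBM47-OE replicates 1, 2 and 3, and between -0.162 and 0.128 for each NC library against the others. The tests of single genes and the list counts below are therefore also given from a fit in which every library's trend with GC content was removed as an offset. That offset takes out any change that follows GC content, technical or not, and which of these it removes was not tested.

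Of the 10 G1/S genes, 4 were lower and 2 higher in RBM47-OE. CCNE1, CDK4, CCND3 and E2F1 fell, and the inhibitors of the transition, CDKN1B and RB1, rose. All changes were below 1.5-fold, the largest being the 1.48-fold fall of CCNE1. In edgeR's quasi-likelihood test with Benjamini-Hochberg adjustment over 16260 genes, a call at an adjusted p under 0.05 was made as lower for 16.9% and as higher for 19.1% of all genes, 35.9% together. The 2 rises among 10 are thus near the share among all genes. With the GC offset the lower genes were CCNE1, CDK4 and CDK6, and 0 of the 10 were higher, where 8.54% and 6.1% of all genes were lower and higher, 14.6% together. With the stricter rule of the study (p under 0.01 before adjustment, fold change over 1.5), edgeR called 0 of the 10, and 1.51% of all genes as higher and 0.873% as lower, 2.38% together. By the unadjusted p alone, 7 of the 10 had a value under 0.05.

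CCNE1 (ENSG00000105173; chromosome 19 of GRCh38, 29811991 to 29824312), the E-type cyclin that activates CDK2, had 33.5, 33.3 and 31.6 CPM in NC replicates 1, 2 and 3 and 21.9, 20.9 and 23.6 in the RBM47-OE replicates. The groups were far apart. No RBM47-OE library reached the lowest NC library, which holds for 23.4% of all genes. Its log2 fold change was -0.57 (standard error, SE, 0.088, adjusted p = 5.5e-05 by edgeR). With the GC offset it was -0.44 (SE 0.074, adjusted p = 0.000588 by edgeR), and in all 18 alternative fits it stayed between -0.62 and -0.44 with an adjusted p of at most 0.028. CCNE2 (ENSG00000175305; chromosome 8), the second E-type cyclin, had 13.2, 12.8 and 14.98 CPM in NC and 11.7, 14.6 and 21.6 in RBM47-OE. These values overlapped, and RBM47-OE replicates 1 and 3 were the lowest and highest of all 6. The log2 fold change was 0.22 (SE 0.15, 95% interval -0.07 to 0.51, adjusted p = 0.254 by edgeR). It was 0.41 without RBM47-OE replicate 1 (adjusted p = 0.014 by edgeR, the lowest of the 18 alternatives, which reached 0.79) and -0.05 without replicate 3. Of the exonic bases of CCNE2, 37.1% also lie in exons of INTS8 on the opposite strand, and INTS8 had 5.4 times the reads of CCNE2 and rose by 0.51 (SE 0.079, adjusted p = 5.9e-05 by edgeR). The study's methods name a stranded library kit, but the use of strand in counting is not stated, so CCNE2 levels are uncertain.

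CDK4 (ENSG00000135446; chromosome 12, 57747727 to 57756013), a kinase partner of the D cyclins, had 241.1, 257.5 and 234.7 CPM in NC and 204.6, 176.1 and 189.2 in RBM47-OE. All RBM47-OE libraries were below all NC libraries, as for 23.4% of all genes, and the fall was smallest in RBM47-OE replicate 1. The log2 fold change was -0.36 (SE 0.073, adjusted p = 0.000537 by edgeR) and -0.23 with the GC offset (adjusted p = 0.00836 by edgeR). CDK4 was lower in all 18 alternatives, at adjusted p-values from 1.8e-05 to 0.038. TSPAN31 on the opposite strand shares 44.3% of the exonic bases of CDK4 and had 8.79% of its reads, with a log2 fold change of -0.20 (SE 0.095, adjusted p = 0.104 by edgeR). The limit on the use of strand holds for CDK4 too.

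CDK6 (ENSG00000105810; chromosome 7, 92604921 to 92836573), the other kinase partner of the D cyclins, had 62.1, 60.1 and 58.9 CPM in NC and 52.7, 61.8 and 63.3 in RBM47-OE. RBM47-OE replicate 1 was below all other libraries and replicate 3 above them. The log2 fold change was -0.03 (SE 0.079, 95% interval -0.18 to 0.13, adjusted p = 0.825 by edgeR). Its exons hold 40.4% GC, below the median of 49.0% for all genes tested, and with the GC offset the log2 fold change was -0.31 (SE 0.054, adjusted p = 0.000846 by edgeR). CDK2 (ENSG00000123374; chromosome 12, 55966781 to 55972789), the kinase partner of cyclin E, had 128.2, 131.7 and 119.5 CPM in NC and 114.1, 112.1 and 114.6 in RBM47-OE. All RBM47-OE libraries were below all NC libraries by CPM, as for 23.4% of all genes (46.5% were apart in either direction), whereas the FPKM values overlapped. At -0.15 (SE 0.069, adjusted p = 0.0831 by edgeR) the change of CDK2 did not pass the test, nor did it with the GC offset at -0.10 (adjusted p = 0.217 by edgeR). Without RBM47-OE replicate 1 it did, at an unchanged log2 value of -0.15 (adjusted p = 0.045 by edgeR, the lowest of 18 alternatives, which reached 0.345).

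Of the D cyclins, CCND3 (ENSG00000112576; chromosome 6, 41934934 to 42050357) had 51.8, 53.5 and 52.0 CPM in NC and 42.9, 41.7 and 41.5 in RBM47-OE. The libraries of each group lay close together. All RBM47-OE libraries were below all NC libraries, as for 23.4% of all genes. The log2 fold change was -0.32 (SE 0.075, adjusted p = 0.00178 by edgeR). With the GC offset it was -0.12 (adjusted p = 0.196 by edgeR), and the call was lost. CCND1 (ENSG00000110092; chromosome 11, 69641156 to 69654474), the more abundant of the pair, had 748.2, 706.1 and 785.8 CPM in NC and 643.3, 635.4 and 776.6 in RBM47-OE. RBM47-OE replicates 1 and 2 lay below the NC libraries and replicate 3 among them. The log2 fold change of CCND1 was -0.12 (SE 0.081, 95% interval -0.28 to 0.03, adjusted p = 0.243 by edgeR). Without RBM47-OE replicate 3 it was -0.22 (adjusted p = 0.032 by edgeR, the lowest of 18 alternatives, which reached 0.996).

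CDKN1B (ENSG00000111276; chromosome 12, 12685498 to 12722369) had 32.5, 32.9 and 34.7 CPM in NC and 41.7, 47.3 and 43.5 in RBM47-OE. Every RBM47-OE library was above every NC library, as for 23.2% of all genes. The log2 fold change was 0.40 (SE 0.082, adjusted p = 0.000557 by edgeR), the largest rise among the 10 genes. RB1 (ENSG00000139687; chromosome 13, 48303744 to 48599436) had 50.2, 52.1 and 53.0 CPM in NC and 59.2, 66.5 and 73.4 in RBM47-OE. The groups of RB1 did not overlap either, with a log2 fold change of 0.36 (SE 0.080, adjusted p = 0.00128 by edgeR). Both rises were lost with the GC offset. CDKN1B then had 0.14 (SE 0.066, adjusted p = 0.161 by edgeR) and RB1 had -0.0049 (SE 0.057, adjusted p = 0.969 by edgeR). RB1 has the lowest exonic GC content of the 10 genes, 36.9%, and CDKN1B has 41.05%.

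E2F1 (ENSG00000101412; chromosome 20, 33675477 to 33686385) had 51.1, 53.7 and 48.6 CPM in NC and 44.5, 40.7 and 40.7 in RBM47-OE. All RBM47-OE libraries were below all NC libraries, as for 23.4% of all genes. The log2 fold change of E2F1 was -0.29 (SE 0.078, adjusted p = 0.00589 by edgeR). E2F1 has the highest exonic GC content of the 10, 61.6%, and with the GC offset it had -0.07 (SE 0.061, adjusted p = 0.531 by edgeR). The call was also lost without NC replicate 2, at -0.25 (adjusted p = 0.065 by edgeR). With limma on log2(FPKM + 1) values without a filter it was lost too, at -0.20 (adjusted p = 0.058 by limma). It was lost in 4 of the 18 alternatives, over which the adjusted p of E2F1 ranged from 0.000598 to 0.606.

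**Figure D1:**
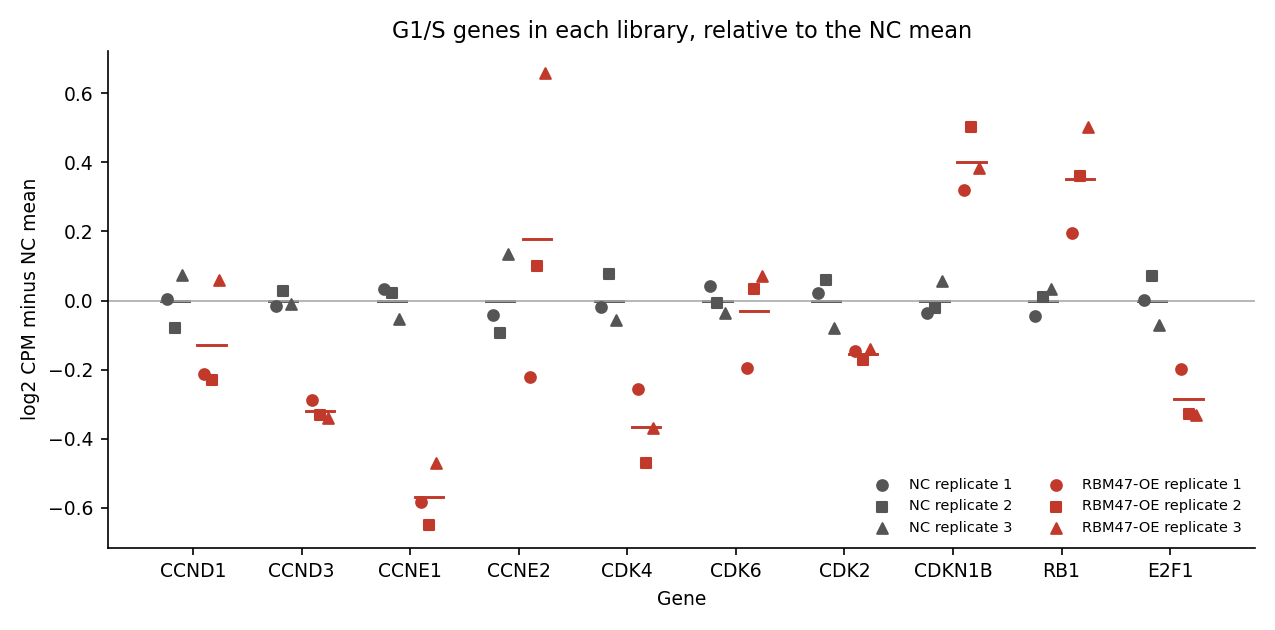
Difference in log2 CPM from the NC mean for the 10 G1/S genes (horizontal axis), in each of 3 NC (grey) and 3 RBM47-OE (red) libraries, with short lines for group means. CCNE1, CDK4, CCND3 and E2F1 lie below NC in all RBM47-OE libraries and CDKN1B and RB1 above it, while CCNE2 spreads from -0.22 to 0.66.

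The higher and the lower genes differed in GC content. Median exonic GC was 55.4% for the 4 lower genes and 39.0% for the 2 higher genes, beside 57.1% and 40.3% for the lower and higher genes of the whole table. CCNE1 and CDK4, at 52.2% and 52.6% GC, kept their calls with the offset.

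**Figure D2:**
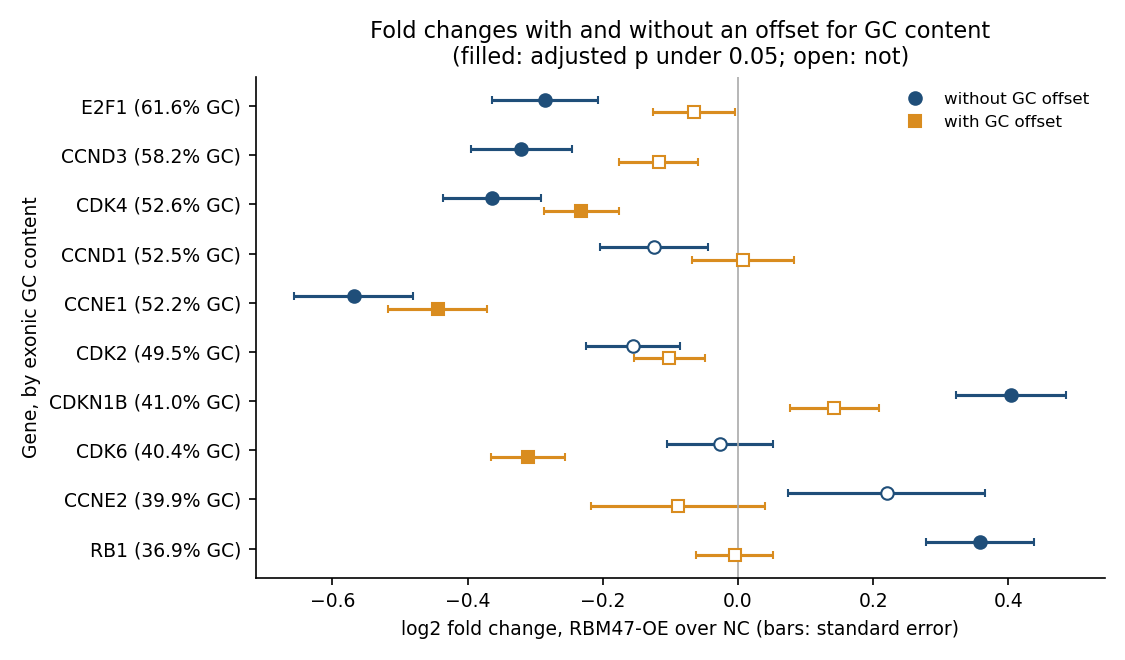
Log2 fold change of RBM47-OE over NC with its standard error for the 10 G1/S genes, ordered by exonic GC content (vertical axis), without (blue circles) and with (orange squares) the GC offset, filled where the adjusted p was under 0.05. CCNE1 and CDK4 are filled in both fits, and RB1 moves from 0.36 to -0.0049.

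Levels were compared between genes by FPKM, fragment counts scaled for gene length and depth by the authors. CCND1 was the most abundant in NC, at 135.1 ± 7.16 FPKM (SD, n = 3), above 98.5% of 16368 protein-coding genes. CDK4 followed at 68.1 ± 3.40, CDK2 at 28.0 ± 1.38 and E2F1 at 16.4 ± 0.828. CCNE1 had 11.5 ± 0.355 FPKM, CCND3 7.84 ± 0.160 and RB1 6.93 ± 0.223. The lowest were CDK6 at 4.25 ± 0.0954, CDKN1B at 3.11 ± 0.119 and CCNE2 at 2.68 ± 0.231 FPKM, the last above 51.5% of protein-coding genes. No neighbours in this order overlapped in NC. CCND1 thus stood 50.5-fold above CCNE2.

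In RBM47-OE, RB1 at 9.35 ± 1.10 FPKM (SD, n = 3) stood above CCNE1 at 8.13 ± 0.465, the reverse of their order in NC, although the ranges of these genes overlapped in RBM47-OE. The ranges of CDK6 (4.39 ± 0.499 FPKM) and CDKN1B (4.33 ± 0.381) overlapped too, as did those of CDKN1B and CCNE2 (3.29 ± 1.05). The other neighbours were apart. By FPKM too, the groups of CCNE1, CDK4, CCND3, E2F1, CDKN1B and RB1 did not overlap. For each, an exact two-sided permutation test over libraries gives p = 0.10, the smallest value that 3 against 3 allow. The share of all genes with groups apart was not counted by FPKM, and by CPM it was 46.5%.

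**Figure D3:**
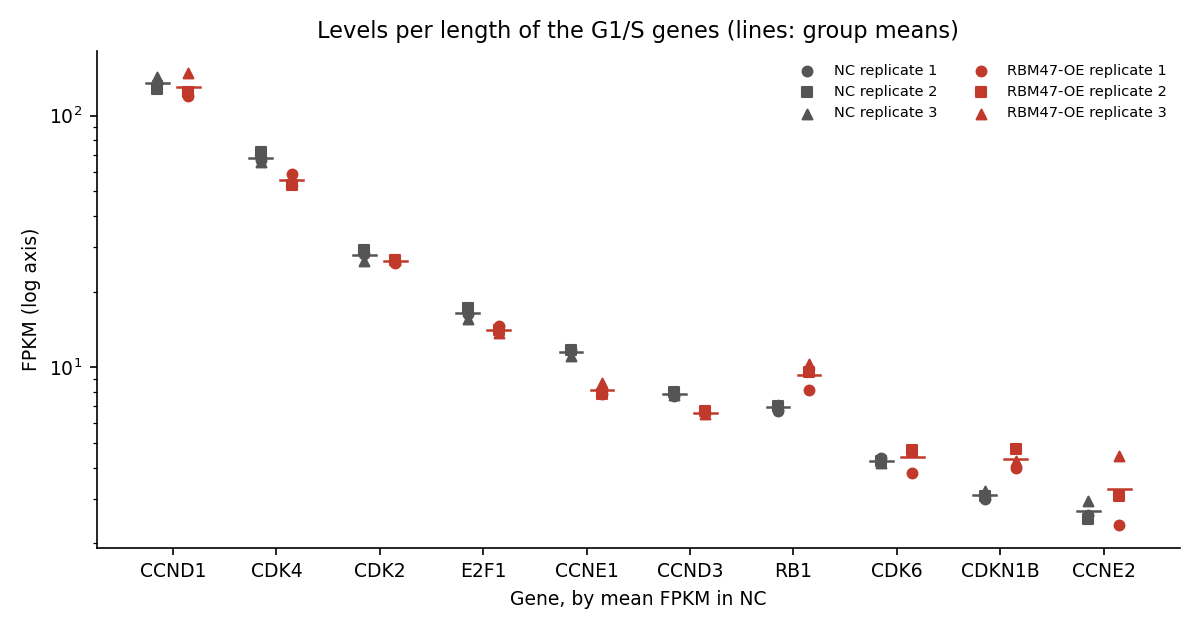
FPKM (log axis) of the 10 G1/S genes in each NC (grey) and RBM47-OE (red) library, ordered by the NC mean, with lines for group means. CCND1 is highest at 135.1 FPKM in NC and CCNE2 lowest at 2.68.

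Related genes that share a role were set against each other within each library, which is independent of the scaling between libraries. The ratio of CCNE1 to CCNE2 in FPKM was 4.53, 4.66 and 3.77 in NC and 3.33, 2.54 and 1.957 in RBM47-OE. All RBM47-OE ratios were below all NC ratios, and the log2 difference was -0.75 (exact two-sided permutation p = 0.10, the smallest possible, and 0.20 when adjusted over 3 ratios). The ratio of CDK4 to CDK6 was 15.4, 17.0 and 15.7 in NC. It was 15.4, 11.3 and 11.8 in RBM47-OE, a log2 difference of -0.33 (exact permutation p = 0.20). RBM47-OE replicates 2 and 3 were below NC and replicate 1 level with NC replicate 1. The ratio of CCND1 to CCND3 was 17.5, 15.98 and 18.3 in NC. It was 18.1, 18.5 and 22.7 in RBM47-OE, and the groups overlapped (log2 difference 0.19, exact permutation p = 0.20). None of the 3 ratios could pass 0.05 in this design. GC content also differs between the genes of a pair (52.2% and 39.9% for CCNE1 and CCNE2), and the uncertainty of CCNE2 counts carries over to its ratio.

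**Figure D4:**
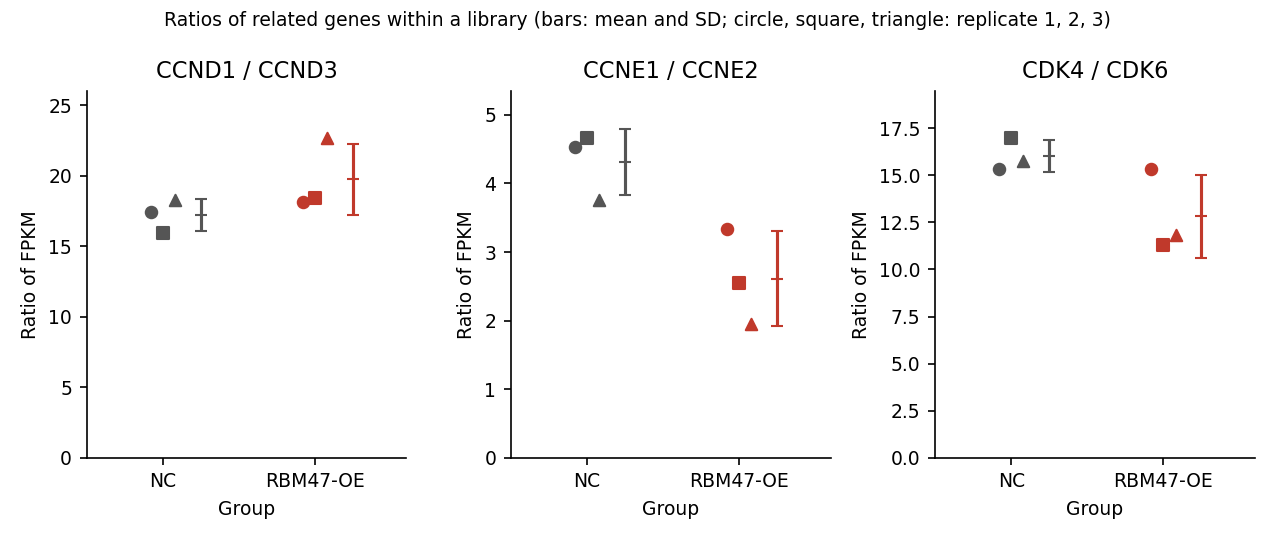
Ratio of FPKM between CCND1 and CCND3, CCNE1 and CCNE2, and CDK4 and CDK6 in each library (points), with the mean and SD of each group beside them. The CCNE1 to CCNE2 ratio lies between 3.77 and 4.66 in NC and between 1.957 and 3.33 in RBM47-OE.

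The other genes of the pathway were followed in 5 lists, of which 89 of 90 genes were tested: 21 were higher and 34 lower at an edgeR adjusted p under 0.05. With the GC offset 5 were higher and 24 lower, and 21 of the 55 calls were kept in the same direction. Of all genes tested, 19.1% were higher and 16.9% lower, and 6.1% and 8.54% with the GC offset. The 21 and the 5 higher genes are thus near the share among all genes. The counts of each list below are to be read beside these shares, and no set test was run. Scaled by library totals, which move the median of all genes by 0.06 (log2), 26 of the list genes were higher and 24 lower. Fewer cells in a phase of the cycle and less RNA per cell cannot be told apart in these bulk samples.

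Of 6 other CDK inhibitors, CDKN1A (p21) and CDKN2A (the p16 and ARF locus) fell and 0 rose. The GC offset left 0 lower and 1 higher, CDKN1C (p57), named after its values were seen. CDKN1C had 46.5 ± 1.64 CPM (SD, n = 3) in NC and 51.06 ± 4.56 in RBM47-OE, a log2 fold change of 0.13 (SE 0.080, adjusted p = 0.20 by edgeR) and of 0.37 with the offset (SE 0.057, adjusted p = 0.000309 by edgeR). It also passed with an offset for exonic length (0.21, adjusted p = 0.0299 by edgeR). CDKN1A had 863.3 ± 49.9 CPM (SD, n = 3) in NC and 693.8 ± 64.8 in RBM47-OE, a log2 fold change of -0.32 (SE 0.078, adjusted p = 0.00289 by edgeR). CDKN2A had -0.24 (SE 0.076, adjusted p = 0.0164 by edgeR). Both lost the call with the GC offset (adjusted p = 0.187 and 0.568 by edgeR). CDKN1A also lost it with limma on log2(FPKM + 1) values without a filter (-0.25, adjusted p = 0.115 by limma). CDKN2A also lost it without NC replicate 1, NC replicate 2, RBM47-OE replicate 2 or RBM47-OE replicate 3, at log2 values from -0.23 to -0.19. With library totals (adjusted p = 0.073 by edgeR) and in every limma fit the call of CDKN2A was lost too. It was lost in 10 of the 18 alternatives. Without the offset CDKN1B was thus the CDK inhibitor that rose and the more abundant CDKN1A fell, whereas with it neither passed and CDKN1C was higher.

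Among 16 pocket proteins, E2F and DP factors and DREAM subunits, 5 rose and 4 fell, with a median log2 fold change of 0.19 against 0.00 over all genes tested. The GC offset left 1 higher and 1 lower, and the median was then 0.014. The count of higher genes was 8 when RBM47-OE replicate 1 was left out and 8 with library totals. That of lower genes was 1 when NC replicate 1, NC replicate 2 or RBM47-OE replicate 2 was left out, 1 with limma, and 2 when NC replicate 3 was left out, with library totals or with the replicate block. The RB1 relatives RBL1 and RBL2, which pair with repressor E2Fs, rose by 0.40 and 0.38 (adjusted p = 0.00189 and 0.000974 by edgeR), close to RB1 itself at 0.36. LIN9 and LIN54, subunits of the DREAM core, rose by 0.47 and 0.44 (adjusted p = 0.0131 and 0.00161 by edgeR). LIN9 lost its call when NC replicate 2 was left out, and when RBM47-OE replicate 2 or 3 was (log2 values of 0.35 to 0.42), and LIN9 and LIN54 both with the GC offset (adjusted p = 0.147 and 0.326 by edgeR). The pocket proteins RBL1 and RBL2 had values of 0.11 and 0.16 with the GC offset and no longer passed (adjusted p = 0.358 and 0.137 by edgeR). MYBL2, an E2F target that joins the DREAM core in cycling cells, fell from 192.2 ± 1.92 to 142.0 ± 4.64 CPM (SD, n = 3), a log2 fold change of -0.44 (SE 0.068, adjusted p = 6.2e-05 by edgeR), and passed with the GC offset at -0.22 (adjusted p = 0.00712 by edgeR). TFDP2, a DP partner of the E2Fs, rose by 0.37 (adjusted p = 0.0005 by edgeR) and by 0.26 with the offset (adjusted p = 0.00449 by edgeR). The other lower genes were E2F4, TFDP1 and E2F2, at -0.24, -0.21 and -0.21 (adjusted p = 0.0119, 0.0233 and 0.0413 by edgeR). They lost their calls with the GC offset (adjusted p = 0.714, 0.145 and 0.843 by edgeR). E2F5, LIN37 and LIN52 did not pass in either fit. The list thus held repressor partners and other subunits that moved in both directions or were not called. RBL1, RBL2, E2F4, TFDP1 and E2F2 lie outside the naming rule and were picked with their values known.

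Of 13 tested genes of CDK activation and cyclin turnover, 4 rose and 3 fell, with a median of 0.04. With the GC offset 0 were higher and 6 lower, and the median was then -0.21. CDC37 lost its call as lower, and CCNH, SKP1, SKP2 and CKS1B, not called without the offset, were lower with it. CDC25A, the phosphatase that removes the inhibitory phosphates of CDK2, had 38.9 ± 1.02 CPM (SD, n = 3) in NC and 26.6 ± 5.70 in RBM47-OE. Its log2 fold change of -0.55 (SE 0.11, adjusted p = 0.000375 by edgeR) was close to that of CCNE1, and it stayed at -0.46 with the GC offset (adjusted p = 0.00508 by edgeR). AMBRA1, the ligase adaptor that directs D cyclins to degradation, fell by 0.36 (SE 0.083, adjusted p = 0.00147 by edgeR) and by 0.26 with the offset (adjusted p = 0.0112 by edgeR). MNAT1, a subunit of the CDK-activating kinase, rose by 0.49 (SE 0.099, adjusted p = 0.000594 by edgeR), and its value with the offset was 0.11 (adjusted p = 0.33 by edgeR). CCND2 was not tested.

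Of 35 E2F target genes of the G1/S transition, 18 were lower and 5 were higher, beside 16.9% and 19.1% of all genes. The median of the list was -0.20 on the log2 scale. The lower genes held some helicase subunits and loaders (MCM2, MCM5, MCM7, CDT1, ORC1), PCNA and TYMS. Others of that kind, MCM3, MCM4, MCM6 and CDC6, did not pass, at -0.12, -0.03, 0.03 and 0.12. The higher genes included RRM1, POLA1, MSH6 and FBXO5. UNG, the uracil DNA glycosylase, fell from 109.7 ± 1.53 to 82.0 ± 9.88 CPM (SD, n = 3), a log2 fold change of -0.42 (SE 0.079, adjusted p = 0.00031 by edgeR). RRM1, the large subunit of ribonucleotide reductase, rose from 101.8 ± 2.60 to 145.3 ± 21.1 CPM (SD, n = 3), a log2 fold change of 0.51 (SE 0.083, adjusted p = 8.4e-05 by edgeR). FBXO5, an inhibitor of the anaphase-promoting complex, rose by 0.47 (SE 0.098, adjusted p = 0.000779 by edgeR). With the GC offset, UNG at -0.39 and RRM1 at 0.32 passed (adjusted p = 0.000823 and 0.00215 by edgeR) and FBXO5 at 0.15 did not (adjusted p = 0.259 by edgeR). In that fit 10 of the 35 were lower and 2 higher, with a median of -0.10. MCM2, MCM5 and PCNA were among the 10, and MCM7, CDT1, ORC1, TYMS, POLA1 and MSH6 lost their calls. MCM6, not called without the offset, was also among the 10, at -0.19 (adjusted p = 0.0302 by edgeR). The count of lower genes was 11 with library totals, 8 with limma on log2(FPKM + 1) values and 11 without NC replicate 2. The count of higher genes was 3 when NC replicate 1 or NC replicate 3 was left out, 8 when RBM47-OE replicate 1 was, and 2 with limma when no filter was used. UNG and MCM7 carry the motif shown at the start, as do both MSH6 and POLA1, which were higher without the offset. No match was found for RRM1 and FBXO5, but windows were at hand for only 32 of the 35 genes.

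Among 19 genes of G2 and mitosis, 7 rose and 7 fell, with a median of -0.11. PLK1, a mitotic kinase, fell from 150.4 ± 4.24 to 102.1 ± 10.6 CPM (SD, n = 3), a log2 fold change of -0.56 (SE 0.076, adjusted p = 2.7e-05 by edgeR). PKMYT1, a kinase that inhibits CDK1, fell by 0.53 (SE 0.080, adjusted p = 4.9e-05 by edgeR), and TOP2A, the DNA topoisomerase of proliferating cells, rose by 0.49 (SE 0.081, adjusted p = 0.000103 by edgeR). All 3 passed with the GC offset, at -0.37, -0.30 and 0.16 (adjusted p = 0.000213, 0.00152 and 0.0451 by edgeR). In that fit 7 of the list were lower and 1 higher. WEE1 and CENPE, not called without the offset, were then lower, and CDC25B and AURKB lost their calls. TOP2A lost its call when the offset was joined with the replicate block (0.16, adjusted p = 0.0731 by edgeR), and 0 of the list were then higher.

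**Figure D5:**
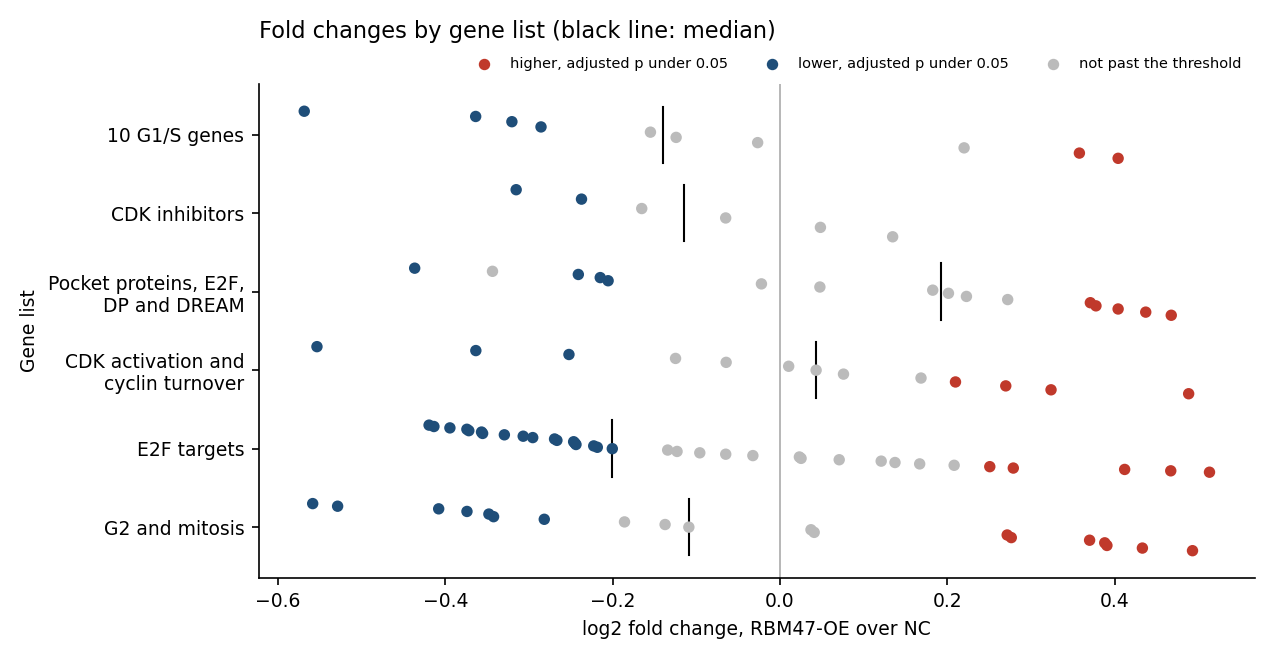
Log2 fold change of RBM47-OE over NC for each tested gene of the 10 G1/S genes and of 5 lists of the pathway (vertical axis), red where higher and blue where lower at an adjusted p under 0.05 and grey otherwise, with a black line at the median. E2F targets lie mostly below 0, with a median of -0.20, and the pocket protein list has a median of 0.19.

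Across the 6 libraries, the profiles of called G1/S genes were set against the 89 genes of these lists by the root mean square distance of log2 CPM differences from the NC mean. The nearest gene to CDK4 was AMBRA1, at a distance of 0.023. MCM7 was nearest to CCND3 (0.055), CDC37 to E2F1 (0.0384), MYBL2 to CCNE1 (0.112) and TFDP2 to CDKN1B (0.0514). These distances describe likeness over few libraries and carry no test.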

How the data were processed

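Counts and FPKM of 3 NC and 3 RBM47-OE libraries were used. The authors trimmed the reads and mapped them with HISAT2 (GRCh38). The deposited counts are raw numbers of uniquely mapped reads per gene, and the authors derived FPKM from those reads. The study's methods name a stranded library kit, and the sample labels name a different kit. The counting tool, annotation release and use of strand in counting are not given in the sources used here. Counts were tested with edgeR 4.0.16 in R 4.3.3 (filterByExpr with a minimum count of 10 and minimum total count of 15, TMM, quasi-likelihood test, condition as the only term). CPM values are TMM-normalized, log2 CPM used a prior count of 2, and standard errors are the log2 fold change over the square root of F. Exonic GC content and length of 28402 genes came from GENCODE 44 and GRCh38, and the GC offset was a loess curve (span 0.3) per library. Genes on the Y copies of the pseudoautosomal regions were given no GC value. The model was tested on simulated data.

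Alternatives were DESeq2 1.42.0, RLE factors, library totals, other count filters, the replicate number as a block, GC and length offsets, limma 3.58.1 on FPKM (mean of at least 0.1, or no filter) and each library left out. Genes of the pathway lists were named when among the 3 largest changes of a list past the threshold with a mean log2 CPM of at least 0, or nearest in profile to a called gene. RBL1, RBL2, E2F2, E2F4, TFDP1 and CDKN1C were added. The genes and lists were chosen with earlier results of these data known.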

Additional observations from a re-analysis of the deposited data

How the results depend on the processing

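The counts of 2 higher and 4 lower G1/S genes were within 1.5 times under DESeq2, RLE factors, library totals, both count filters, the length offset and limma on FPKM. With the replicate block they were again 2 and 4, and the 5 lists gave 20 higher and 31 lower genes. No pairing by replicate number was seen (correlations of same-numbered deviations of -0.0596, -0.0149 and -0.0159). With 3 libraries per group these correlations cannot tell whether the libraries were prepared in pairs. Higher G1/S genes numbered 0 with the GC offset, alone and with the replicate block, and 0 higher and 0 lower met the study's thresholds. Of the 5 lists, 5 genes were higher with the GC offset, 4 with the offset and the replicate block, 12 with limma on log2(FPKM + 1) without a filter and 0 at the study's thresholds. Lower genes numbered 19 with limma for a pseudocount of 1 and 19 for one of 0.1, 15 without a filter and 0 at the study's thresholds. The causes of these shifts were not tested. With each library left out, 2 to 3 G1/S genes were higher and 3 to 5 lower, and 17 to 28 list genes were higher and 22 to 36 lower, the 22 without NC replicate 2. Over all genes, 3100 were higher and 2740 lower, against 992 and 1388 with the GC offset, 1416 and 912 with limma without a filter, 2872 and 1586 with a filter, 2090 and 1675 without NC replicate 2, and 3693 and 1889 with library totals.

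Directions changed for CCND1, CCNE2, CDK6 and RB1. With the GC offset, alone and with the replicate block, CCND1 had 0.0076 and 0.00099, CCNE2 -0.089 and -0.11 and RB1 -0.0049 and -0.0045. CCNE2 ranged from -0.054 to 0.41 and CDK6 from -0.077 to 0.059 with each library left out. CDK6 was also above 0 with library totals (0.037) and limma on log2(FPKM + 1), with and without a filter (0.033 for both), and with a pseudocount of 0.1 (0.039). With each library left out, the log2 ratio differences stayed between -0.95 and -0.56 for CCNE1 to CCNE2, -0.47 and -0.25 for CDK4 to CDK6, and 0.09 and 0.25 for CCND1 to CCND3.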

Other observations

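The 3′ UTRs of the 10 G1/S genes, taken from the MANE Select transcripts of GENCODE 44, varied widely. The longest was that of CDK6, with 10219 bases and 26 copies of ATTTA, a pentamer found in AU-rich elements. CCNE1 and CDK4 had 535 and 798 bases and 0 copies. RB1, with 1819 bases and 31.3% GC, held 12 copies and CDKN1B, with 1342 bases and 33.5% GC, held 7. E2F1, at 55.9% GC, held 6. CCNE2 and CCND1, neither of them called, held 10 and 7. CCND3, called lower, and CDK2, not called, held 2 each. Over 12750 tested genes with a 3′ UTR, the median length was 1308 bases, the median GC content 42.9% and the median number of copies 2, and 72.2% held at least 1. The copies are counts of letters and not binding sites, and their relation to the changes was not tested.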
